A study of Mus musculus with 6 samples.

Results

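The 5 mammalian genes that encode a MADS-box transcription factor, *Mef2a*, *Mef2b*, *Mef2c*, *Mef2d* and *Srf*, were followed in the hippocampus of mice that lack functional p300 in adult excitatory neurons. The genes were chosen by family membership and not by any measured value, and 5 of the 55471 genes in the count table are members. RNA-seq was performed on total RNA from the hippocampus of 6 mice of the C57BL/6 strain, 3 p300-ifKO mice and 3 control littermates, with 1 library per mouse. In p300-ifKO mice a floxed *Ep300* allele was recombined by creERT2, a tamoxifen-dependent Cre recombinase driven by *Camk2a*, which is active in excitatory forebrain neurons only, so that interneurons, glia and vascular cells of the same tissue keep the intact gene. Mice of both groups were males, per the methods of the study. They were 3 to 6 months old and were given tamoxifen 5 times, as a solution of 20 mg/ml. The protocol describes the controls as littermates without creERT2, whereas the driver is listed in the descriptions of the control libraries. *Esr1*, part of which is carried by creERT2, had between 87.2 and 109 normalized counts (counts divided by the size factor of the library) in the control libraries and between 2416 and 4217 in the p300-ifKO libraries.

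MADS-box factors bind DNA as dimers and have little effect on transcription without partners. MEF2 proteins sit at A/T-rich sites, where class IIa histone deacetylases hold target genes silent until calcium signaling releases these repressors and lets the acetyltransferases p300 and CBP (encoded by *Ep300* and *Crebbp*) take their place. SRF binds the CArG box together with ternary complex factors of the ELK family, which respond to ERK signaling, or with myocardin-related factors, which respond to actin, and it also recruits p300 and CBP. In neurons, MEF2 factors are known for restricting the number of excitatory synapses and SRF for the induction of immediate early genes and of cytoskeletal genes. *Mef2c* is also expressed in microglia, interneurons and endothelium, so that its level in whole tissue is a sum over several cell types. In such bulk samples, fewer cells of a type and less RNA per cell cannot be told apart.

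The part of each gene that codes for the DNA-binding MADS box is shown because it defines the family and because reads of near-identical copies could be confused. The stretches hold 57 codons, taken from the GENCODE M21 transcripts on GRCm38, read 5′ to 3′ on the coding strand. They start at codon 1 in the MEF2 genes and at codon 137 in *Srf*, where the translated sequence matched that of *Mef2c* best. Their genomic spans, introns included, are chr13:83575677-83592894 on the plus strand (exons 3 to 4), chr7:67295462-67316845 on the minus strand (exons 3 to 4), chr3:88155809-88156438 on the plus strand (exons 2 to 3), chr8:70164251-70165164 on the plus strand (exons 2 to 3) and chr17:46553749-46555420 on the minus strand (exons 1 to 2). Capitals mark each base that differs from *Mef2c* at the same position.
Mef2c: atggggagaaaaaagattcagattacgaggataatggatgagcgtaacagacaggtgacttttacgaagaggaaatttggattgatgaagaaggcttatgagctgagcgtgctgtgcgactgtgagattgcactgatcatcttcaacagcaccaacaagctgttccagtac
Mef2a: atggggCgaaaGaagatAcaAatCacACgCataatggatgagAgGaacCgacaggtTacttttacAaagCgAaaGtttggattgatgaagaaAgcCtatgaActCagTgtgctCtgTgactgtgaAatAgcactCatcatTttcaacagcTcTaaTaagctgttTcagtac
Mef2d: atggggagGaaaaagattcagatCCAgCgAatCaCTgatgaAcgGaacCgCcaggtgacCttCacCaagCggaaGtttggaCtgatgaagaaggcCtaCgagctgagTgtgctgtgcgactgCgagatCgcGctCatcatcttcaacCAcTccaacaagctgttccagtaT
Mef2b: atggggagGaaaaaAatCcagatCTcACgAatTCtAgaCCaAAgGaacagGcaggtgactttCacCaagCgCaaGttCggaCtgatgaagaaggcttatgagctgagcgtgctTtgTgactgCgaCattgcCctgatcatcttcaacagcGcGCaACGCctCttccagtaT
Srf: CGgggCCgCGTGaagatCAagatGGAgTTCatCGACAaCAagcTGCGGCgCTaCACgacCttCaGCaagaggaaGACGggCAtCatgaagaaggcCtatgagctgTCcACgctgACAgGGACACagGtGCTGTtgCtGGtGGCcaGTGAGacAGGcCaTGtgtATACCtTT
Of the 171 bases, *Mef2d* shared 82.5% with *Mef2c*, *Mef2a* 81.9%, *Mef2b* 77.8% and *Srf* 48.0%. The longest run that any pair of the 5 stretches had in common was 31 bases, between *Mef2b* and *Mef2c*, which is shorter than the 50-base reads. No stretch of 50 bases in the transcripts of a member occurred in another member, so the counts of these genes were not mixed with each other. The genes lie on GRCm38 at chr7:67231163-67372858 on the minus strand (*Mef2a*, ENSMUSG00000030557), chr8:70139711-70167488 on the plus strand (*Mef2b*, ENSMUSG00000079033), chr13:83504034-83667080 on the plus strand (*Mef2c*, ENSMUSG00000005583), chr3:88142372-88172086 on the plus strand (*Mef2d*, ENSMUSG00000001419) and chr17:46548329-46556175 on the minus strand (*Srf*, ENSMUSG00000015605). Some overlap with neighbors. *Mef2d* shares 531 exonic bases with the antisense gene *1700113A16Rik*, *Mef2a* shares 302 with *Lysmd4* on the opposite strand, and *Mef2b* shares 62 with *Borcs8* on the same strand. The strand setting of the counting is not stated, so reads from these stretches could not be assigned to one gene. *Mef2c* and *Srf* share no exonic base with another gene.

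The *Srf* promoter is shown because it is both the promoter of a member and a place where SRF itself can bind. It spans 250 bases before to 50 after the transcription start, at chr17:46556113-46556412 on the minus strand (RefSeq, GRCm38.p6), and capitals mark its CArG boxes.
Srf promoter: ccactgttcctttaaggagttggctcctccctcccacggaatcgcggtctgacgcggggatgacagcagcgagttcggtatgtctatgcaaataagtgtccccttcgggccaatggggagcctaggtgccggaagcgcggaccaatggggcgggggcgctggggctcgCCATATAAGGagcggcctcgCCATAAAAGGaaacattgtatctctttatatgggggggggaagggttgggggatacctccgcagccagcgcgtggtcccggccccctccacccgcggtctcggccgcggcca
The 2 CArG boxes begin 82 and 62 bases before the start. A CArG box on either strand was present in 1.63% of 32851 promoter windows of this length, and no other member had one. The promoter of *Mef2a*, at chr7:67372809-67373108 on the minus strand, held 1 match to the MEF2 site beginning 2 bases before the start, in capitals below. Such a match was present in 3.19% of the windows.
Mef2a promoter: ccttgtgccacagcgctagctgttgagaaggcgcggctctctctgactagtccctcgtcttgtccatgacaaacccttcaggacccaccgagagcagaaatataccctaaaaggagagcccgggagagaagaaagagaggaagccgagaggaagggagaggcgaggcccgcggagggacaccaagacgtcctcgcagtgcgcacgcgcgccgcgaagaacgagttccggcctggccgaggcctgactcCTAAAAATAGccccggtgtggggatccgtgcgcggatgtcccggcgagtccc
The single window of *Mef2b*, the single window of *Mef2d* and the 3 windows of *Mef2c* held neither motif.

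Except for *Mef2b*, the factors were readily detected in the hippocampus. To compare genes, normalized counts were divided by exonic length. *Mef2d* had the highest level, 939 ± 32.7 (SD, n = 3) normalized counts per kb of exon in control mice, above 94.0% of the 18074 protein-coding genes with a read. *Mef2a* followed at 355 ± 8.95, *Srf* at 332 ± 28.3 and *Mef2c* at 209 ± 12.2 (SD, n = 3 each). *Mef2b* was at 3.38 ± 0.751 (SD, n = 3) per kb, above 18.9% of these genes. The ranges of *Mef2d* and *Mef2a* did not overlap over the 6 libraries, and neither did those of *Mef2c* and *Mef2b*. *Mef2a* was above *Srf* in 5 of 6 libraries with overlapping ranges, and their ratio within a library lay between 0.973 and 1.22. The ranges of *Srf* and *Mef2c* overlapped over all libraries (218 to 363 and 159 to 219 per kb), but *Srf* was above *Mef2c* in 6 of 6. Exonic length here is the union of all annotated exons, which is 15715 bp for *Mef2c* and 14681 bp for *Mef2a*, so a gene of which mainly short transcripts are made has its level understated.

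**Figure D1:**
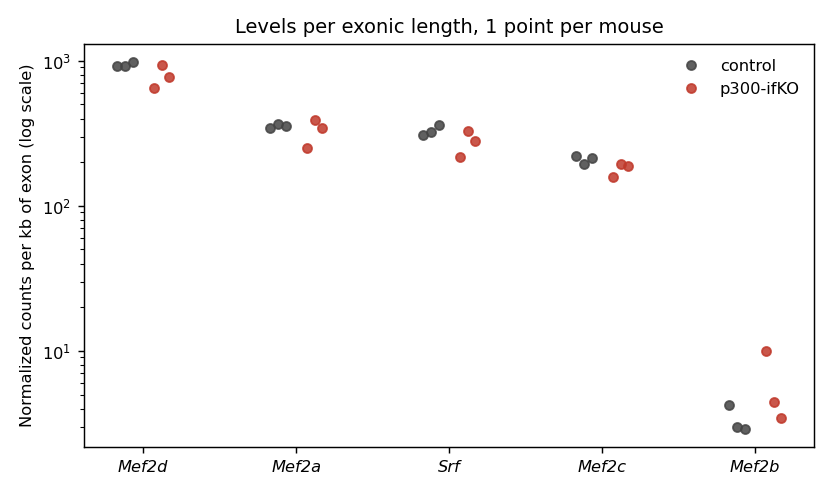
Normalized counts per kb of exon (vertical axis, log scale) for the 5 genes, with 1 point per mouse for control (grey) and p300-ifKO (red). *Mef2d* lies between 645 and 977 and *Mef2b* between 2.91 and 9.94, while *Mef2a* and *Srf* share a range.

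The effect of p300 loss on these genes was asked next. In DESeq2, 0 of the 5 members had an adjusted p under 0.05 and 0 had an unadjusted p under 0.05, against 0.0061% and 1.32% of the 32773 genes tested (0.546% had an unadjusted p under 0.05 and were lower). In edgeR, 0 of the 4 members tested had an adjusted or an unadjusted p under 0.05, against 0.0117% and 2.3% of its 17131 genes. Members with a negative log2 fold change numbered 4, and 54.7% of all genes had one. *Mef2b* had a positive one, as did 45.3% of all genes. The targeted gene itself, *Ep300*, had 1545, 1474 and 2334 normalized counts in control replicates 1 to 3 and 478, 1350 and 912 in p300-ifKO replicates 1 to 3. On the log2 scale it differed by −0.97 ± 0.33 (SE; DESeq2 adjusted p 0.991). p300-ifKO replicate 2 had the most *Ep300* transcript of its group. Since recombination leaves a truncated protein and other cell types keep the gene, these counts do not measure functional p300.

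*Mef2c*, whose loss alters synapse number and behavior in mice, was the member whose groups separated. It had 3438, 3070 and 3350 normalized counts in the controls against 2497, 3068 and 2948 in the p300-ifKO group. No p300-ifKO library reached the lowest control, although the nearest pair, 3068 and 3070, almost touched. For 3.42% of the genes tested, the p300-ifKO libraries were likewise all below the control libraries, and for 3.21% all above. The means were 3286 ± 192 and 2838 ± 301 (SD, n = 3), a difference of −0.21 on the log2 scale (SE 0.13, 95% interval −0.47 to 0.049; DESeq2 p 0.111, adjusted p 0.991). The interval corresponds to between 0.721 and 1.03 of the control level.

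*Mef2d*, the most abundant member, had 5482, 5541 and 5846 normalized counts in the controls against 3862, 5616 and 4624 in the p300-ifKO group. The control libraries were close together, and p300-ifKO replicate 2 lay among them while the other two were lower. The means were 5623 ± 196 and 4701 ± 879 (SD, n = 3), a difference of −0.26 on the log2 scale (SE 0.16, 95% interval −0.58 to 0.060; DESeq2 adjusted p 0.991). This call depended on 1 library. When p300-ifKO replicate 2 was left out, the change was −0.40 ± 0.13 (SE; DESeq2 adjusted p 0.0387), and *Mef2d* was the only member past the threshold. In that fit of 5 libraries, 2.89% of 32019 genes passed, and 1.39% passed and were lower.

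*Mef2a* had 5083, 5344 and 5192 normalized counts in the controls against 3652, 5767 and 5025 in the p300-ifKO group. Its groups overlapped, with p300-ifKO replicate 2 the highest and p300-ifKO replicate 1 the lowest library of all. The means were 5206 ± 131 and 4815 ± 1073 (SD, n = 3), a difference of −0.11 on the log2 scale (SE 0.18, 95% interval −0.47 to 0.24, DESeq2 adjusted p 0.991). Leaving out p300-ifKO replicate 1 turned it to 0.050. The difference was smaller than the spread between p300-ifKO mice.

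*Srf*, the single gene for the factor of CArG boxes, had 893, 936 and 1051 normalized counts in the controls against 629, 944 and 814 in the p300-ifKO group. Again p300-ifKO replicates 1 and 3 were below every control library and replicate 2 was among them. The means were 960 ± 81.8 and 796 ± 158 (SD, n = 3), a difference of −0.27 on the log2 scale (SE 0.18, 95% interval −0.63 to 0.088; DESeq2 p 0.140, adjusted p 0.991). Leaving out p300-ifKO replicate 2 gave −0.41 (DESeq2 adjusted p 0.0901), still short of the threshold.

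*Mef2b*, which is best known from B lymphocytes, had 6, 4 and 4 reads in the control libraries and 13, 7 and 5 in the p300-ifKO libraries. Its log2 fold change of 0.79 (SE 0.81, 95% interval −0.80 to 2.39) covered changes in either direction. At this depth no difference was detectable. *Mef2b* did not pass the filter on low counts in edgeR, whereas the other 4 members did.

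**Figure D2:**
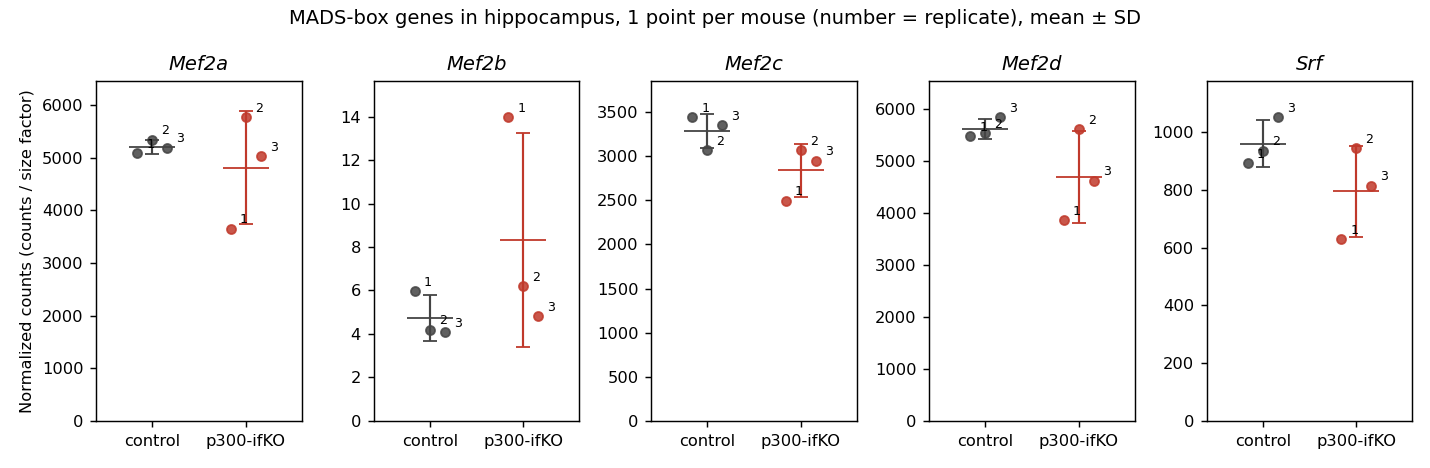
Normalized counts (vertical axes, from 0) of each gene in control (grey) and p300-ifKO (red) mice. Points are mice, numbered by replicate, and bars are the mean ± SD. In *Mef2a*, *Mef2c*, *Mef2d* and *Srf* the p300-ifKO libraries stand in the order replicate 1, 3, 2, and in *Mef2c* alone all of them lie below control.

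The spread of the members was wider in the p300-ifKO group, a difference that was not tested. Over the 3 control mice the coefficient of variation was 2.52% for *Mef2a*, 3.48% for *Mef2d*, 5.85% for *Mef2c* and 8.52% for *Srf*. Over the 3 p300-ifKO mice it was 22.3%, 18.7%, 10.6% and 19.9% in the same order. In each of these 4 genes, p300-ifKO replicate 1 was lowest, replicate 3 intermediate and replicate 2 highest, which is also the order of *Ep300* in these libraries. The same order was found in 22.5% of all genes tested, in 39.5% of the 12252 genes with a mean of at least 100 normalized counts, and in 83.6% of the 1389 of those with at least 10000 bp of exon. *Ep300*, with 14273 bp, belongs to this last set, as do *Mef2a* and *Mef2c*. A relation between the order of the members and the level of *Ep300* was not tested. Libraries differed along exonic length. The ratio of a library to the mean of all 6 followed length over 17054 genes, which do not count as replicates. Spearman's rho was 0.18, 0.16 and 0.41 for control replicates 1 to 3 and −0.51, 0.42 and −0.28 for p300-ifKO replicates 1 to 3. The part of this trend in the values of the members was addressed by fits that model it.

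By length, the members fell into separate classes. Genes with more than 10000 bp of exon had a median log2 fold change of −0.19 (quartiles −0.28 and −0.10). *Mef2c* and *Mef2a* belong here, and their changes of −0.21 and −0.11 lay within those quartiles. Genes between 5000 and 10000 bp had a median of −0.081 (quartiles −0.19 and 0.029), and the −0.26 of *Mef2d* lay below. Among genes of 2000 to 5000 bp the median was 0.057 (quartiles −0.087 and 0.19), and the −0.27 of *Srf* lay below these as well. With smooth offsets for length and GC content per library, *Srf* was at −0.40 (SE 0.22, unadjusted p 0.0640, DESeq2 adjusted p 0.955) and *Mef2d* at −0.24 (SE 0.13, unadjusted p 0.0651, DESeq2 adjusted p 0.955). *Mef2c* and *Mef2a* changed sign in that fit, to 0.057 (SE 0.14) and 0.11 (SE 0.11). With 1 surrogate variable in place of the offsets, *Srf* was at −0.070 (SE 0.10), *Mef2d* at −0.093 (SE 0.07), *Mef2c* at −0.11 (SE 0.08) and *Mef2a* at 0.068 (SE 0.09). In both fits 0 of the members passed. The direction of *Srf* and *Mef2d* held under every fit run, whereas that of *Mef2c* and *Mef2a* did not.

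**Figure D3:**
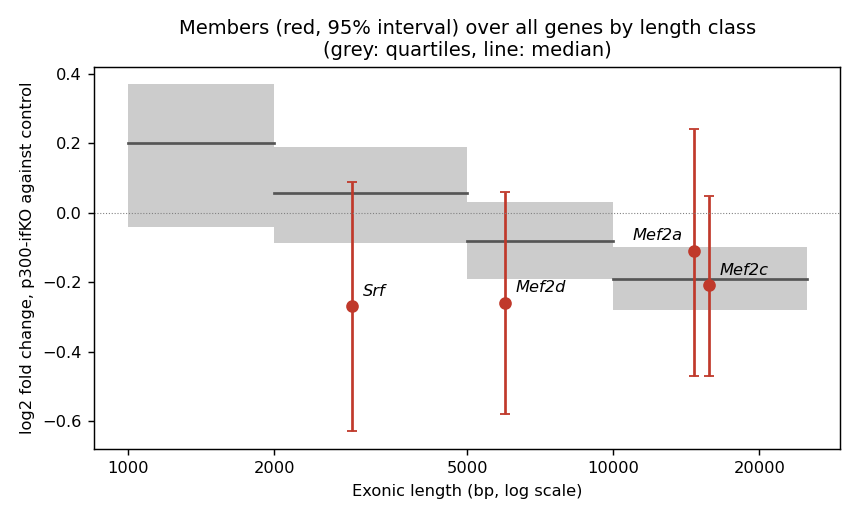
Log2 fold change of p300-ifKO against control (vertical axis) by exonic length (horizontal axis, log scale). Grey boxes span the quartiles of all genes in a length class, with the median as a line, and the outer boxes hold all shorter and all longer genes. Red points are members with their 95% intervals. *Mef2c* and *Mef2a* lie within the box of their class, *Mef2d* and *Srf* below theirs.

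**Figure D4:**
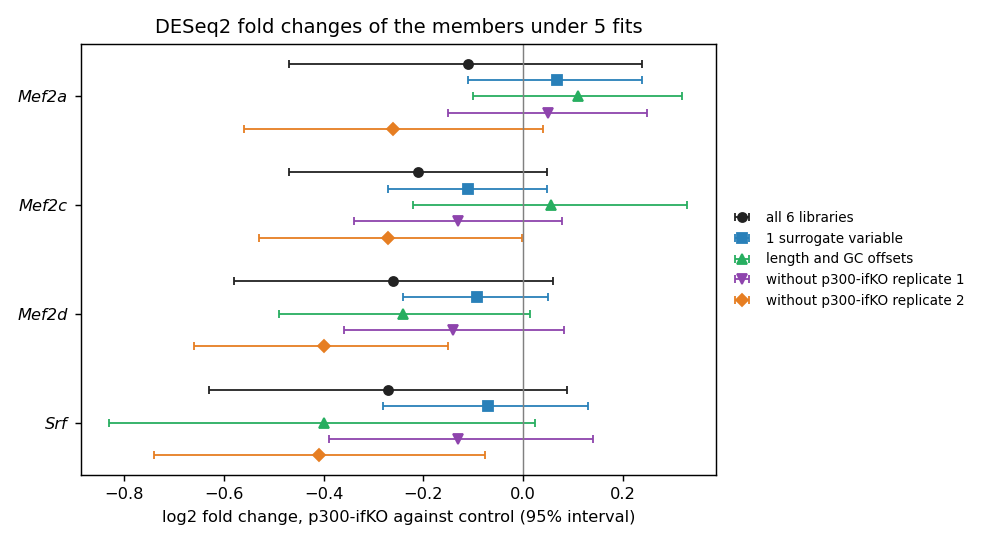
DESeq2 log2 fold change (horizontal axis) with 95% interval for 4 members under 5 fits, each fit with its own color and symbol. Intervals reach or cross 0 except for *Mef2c*, *Mef2d* and *Srf* without p300-ifKO replicate 2, where they end at −0.0026, −0.15 and −0.077.

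Ratios within a library do not depend on its size. *Mef2d* made up 61.7%, 62.2% and 63.2% of the summed MEF2 level per kb in control mice and 60.7%, 61.3% and 59.2% in p300-ifKO mice. Every p300-ifKO library was below every control library, with a mean difference of −1.96 percentage points (exact permutation test, two-sided, p = 0.1, which is the smallest that 3 against 3 allows, and 0.333 adjusted over 5 ratios). *Mef2a* took 23.5% ± 0.823 and 25.1% ± 1.49 (SD, n = 3; exact p = 0.2, adjusted 0.333). The share of *Mef2c* was 13.9% ± 0.807 in control and 14.0% ± 1.14 in p300-ifKO mice (SD, n = 3; exact p = 0.9, adjusted 0.9). *Mef2b* stayed under 1% in every library, at 0.225% ± 0.0533 and 0.495% ± 0.381 (SD, n = 3; exact p = 0.2, adjusted 0.333). The log2 ratio of *Srf* to the summed MEF2 level was −2.19 ± 0.0894 and −2.24 ± 0.0389 (SD, n = 3; exact p = 0.4, adjusted 0.5). In unadjusted values *Mef2d* thus held between 59.2% and 63.2% of the MEF2 level in all 6 libraries. Adjustment for length and GC content widened this range. The share of *Mef2d* per kb was then 62.3%, 63.3% and 67.4% in control replicates 1 to 3 and 53.8%, 63.9% and 58.4% in p300-ifKO replicates 1 to 3, so that the groups overlapped (difference −5.63 percentage points, exact p = 0.3). On the same adjusted scale the share of *Mef2c* differed by 1.8 percentage points (exact p = 0.6) and the log2 ratio of *Srf* to the MEF2 level by −0.332 (exact p = 0.3).

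Genes with the most similar pattern over the 6 libraries were sought among 11801 protein-coding genes with a mean of at least 100 normalized counts. Likeness was the root mean square difference of log2 values centered on the mean of each gene, for which smaller is more alike. The nearest to *Srf* were *Lnx2* (0.0119), a ubiquitin ligase, *Igf1r* (0.0177), the receptor of insulin-like growth factor, and *Uhmk1* (0.0225), a kinase. *Srf* itself departed from its own mean by 0.234 on that scale. *Mef2d* was closest to *Dlg2* (0.0232), a postsynaptic scaffold, *Sestd1* (0.0245) and *B3galt1* (0.0248). *Mef2c* was nearest to *Foxo1* (0.0197), a forkhead factor, *Gga2* (0.0204), a trafficking adaptor, and *Tcof1* (0.0271), a nucleolar factor. For *Mef2a* the nearest genes were *Rap2c* (0.0233), a small GTPase, *Rnf2* (0.0241), a Polycomb ubiquitin ligase, and *Zfr* (0.0274). Among the members, *Srf* and *Mef2d* were most alike (0.0529), with *Mef2d* in place 105 of the genes ordered by likeness to *Srf*. *Mef2a* and *Mef2c* were least alike (0.132).

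The regulators of these factors were examined as a list of 21 genes. In DESeq2, 0 rose and 0 fell past the threshold (1 had an unadjusted p under 0.05), and 8 were above and 13 below 0. The median log2 fold change was −0.082, against −0.046 over all 32773 genes. Of all genes, 1.32% had an unadjusted p under 0.05 and 54.7% were below 0. *Hdac9*, a class IIa deacetylase that represses MEF2 and is itself a MEF2 target, had 1283, 1192 and 1235 normalized counts in the controls against 598, 1166 and 927 in the p300-ifKO group. Here too the groups were apart, and the change was −0.46 ± 0.23 (SE; DESeq2 p 0.0464, adjusted p 0.991) on the log2 scale. *Camk4*, a calcium-dependent kinase of the nucleus, had 354, 367 and 469 in the controls against 280, 344 and 307 in the p300-ifKO group (log2 fold change −0.35, SE 0.18, DESeq2 adjusted p 0.991). Every p300-ifKO library was below every control library here too, as in 3 of the 21 regulators (*Hdac9*, *Camk4* and *Mrtfa*) and 3.42% of all genes tested. *Ncoa2*, a coactivator that also binds MEF2C, was at −0.42 (SE 0.29) and *Hdac4* at −0.21 (SE 0.17). Without p300-ifKO replicate 2, *Hdac9* (−0.69, DESeq2 adjusted p 0.0216) and *Ncoa2* (−0.77, DESeq2 adjusted p 0.0249) passed. In that fit 2.89% of 32019 genes passed, and 1.39% passed and were lower. *Hdac9* and *Ncoa2* have 14838 and 15642 bp of exon. With length and GC offsets they were at −0.28 and −0.26. Among the partners of SRF, the actin-responsive *Mrtfa* was at −0.11 (SE 0.10) and *Mrtfb* at −0.14 (SE 0.17), and the ternary complex factors *Elk1*, *Elk3* and *Elk4* were at 0.020 (SE 0.10), 0.010 (SE 0.17) and 0.026 (SE 0.13). *Myocd*, the cardiac and smooth muscle partner of SRF, had 1.99, 0 and 7.14 normalized counts in the controls against 0, 3.53 and 1.93 in the p300-ifKO group, too few to compare.

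Of 26 known SRF target genes, 0 passed in DESeq2 in either direction (0 at an unadjusted p under 0.05), 14 were above and 12 below 0, and the median was 0.016. That sign is not stable, since the median was −0.061 with length and GC offsets and −0.0096 with 1 surrogate variable. In DESeq2 over all 32773 genes, 0.0061% passed, 1.32% had an unadjusted p under 0.05, 54.7% were below 0 and the median was −0.046. Among the cytoskeletal targets, *Actb*, which encodes beta-actin, averaged 23667 ± 1829 normalized counts in control mice and 25634 ± 4218 in the mutants (SD, n = 3), a difference of 0.12 on the log2 scale (SE 0.16). *Vcl*, the gene for vinculin, had 417, 472 and 724 in the controls against 85.9, 585 and 331 in the p300-ifKO group, a range so wide that its change of −0.69 had an SE of 0.75. *Flna* (filamin A) was at −0.28 (SE 0.22) and *Pdlim7* at 0.25 (SE 0.20). For *Fos* and *Egr1*, activity-dependent targets, the groups had nearly the same mean and a wide spread. *Fos* had 236, 113 and 300 normalized counts in the controls against 150, 357 and 137 in the p300-ifKO group (log2 fold change −0.0095, SE 0.42). *Egr1* had 2365, 1641 and 2604 in the controls against 1929, 2818 and 1930 in the p300-ifKO group (0.014, SE 0.23), so that control replicate 2 was low and p300-ifKO replicate 2 high in both genes. *Junb* was at 0.21 (SE 0.17). *Mcl1*, an antiapoptotic gene, had 2087, 2041 and 2101 in the controls against 2292, 2230 and 2204 in the p300-ifKO group (log2 fold change 0.11, SE 0.10, DESeq2 adjusted p 0.991). All its p300-ifKO libraries were above all controls, as for 2 of the 26 targets and 3.21% of all genes tested.

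The 14 MEF2 target genes also gave 0 calls in either direction in DESeq2 (2 at an unadjusted p under 0.05), with 3 above and 11 below 0 and a median of −0.19. Over all genes tested, 1.32% had an unadjusted p under 0.05, 54.7% were below 0 and the median was −0.046. The median of the targets was −0.037 with length and GC offsets, 0.014 with 1 surrogate variable and −0.22 with the replicate block. With 1 library left out it lay between −0.29 (p300-ifKO replicate 2 omitted) and −0.038 (p300-ifKO replicate 1 omitted). In the former of these fits 2 of the 14 targets passed in DESeq2, against 2.89% of 32019 genes. *Klf2*, a Krüppel-like factor, had 106, 119 and 137 normalized counts in the controls against 177, 135 and 192 in the p300-ifKO group, a difference of 0.48 on the log2 scale (SE 0.23, DESeq2 p 0.0352, adjusted p 0.991). *Klf2* has 1847 bp of exon, and genes of up to 2000 bp had a median log2 fold change of 0.20. With length and GC offsets *Klf2* was at 0.28. *Bdnf*, the neurotrophin gene, was at −0.25 (SE 0.15), *Jun* at −0.13 (SE 0.11) and *Homer1*, a postsynaptic scaffold, at −0.15 (SE 0.22). *Arc* and *Nr4a1*, which depend on SRF as well as MEF2, were at 0.15 (SE 0.25) and −0.017 (SE 0.21).

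**Figure D5:**
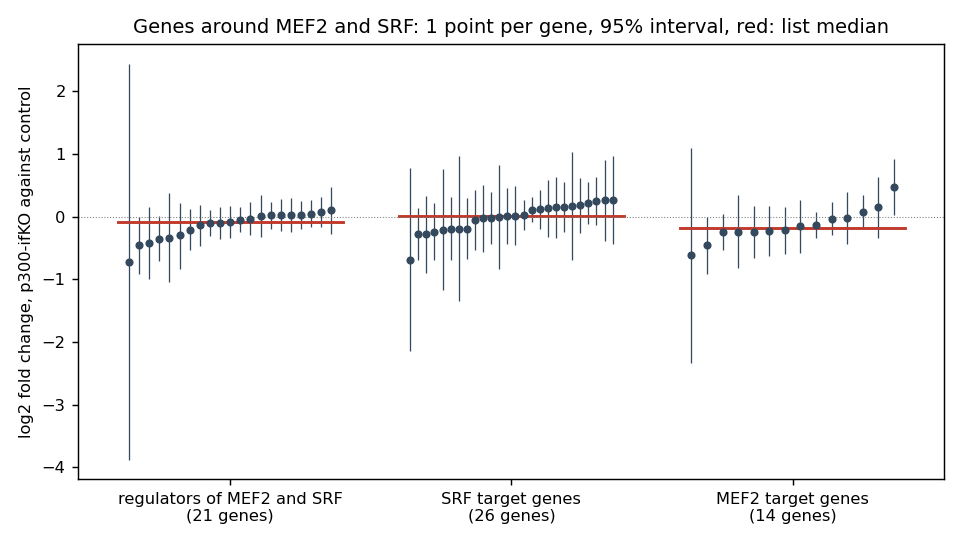
DESeq2 log2 fold change with 95% interval (vertical axis) for each gene of the 3 lists, ordered by value within a list, with the list median in red. The medians are −0.082, 0.016 and −0.19, and 0 genes passed the threshold.

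The promoters of the targets were searched for the same motifs. Of 19 SRF targets with a promoter window, 5 (26.32%) held a CArG box, namely *Actg1*, *Cnn2*, *Egr2*, *Myl9* and *Vcl*. A share of 1.81% of the 27025 genes with a window held one. None of the 5 passed in DESeq2, with changes between −0.69 for *Vcl* and 0.27 for *Actg1*. *Actg1* had between 26.3 and 36.2 normalized counts, few for an actin gene, and since near-identical copies exist elsewhere its count is uncertain. Of 10 MEF2 targets with a window, 2 held a MEF2 site, *Jun* and *Klf2*. Across all genes tested, the 280 with a CArG box had a median log2 fold change of −0.048 and the 453 with a MEF2 site −0.045, beside −0.011 and −0.010 for genes without the respective motif, and 0 of the former genes passed in DESeq2.

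The cell types that carry *Mef2c* were compared through marker lists. All 7 microglia markers were detected, 5 were above and 2 below 0, and their summed level was between 7850 and 8571 normalized counts in the controls and between 8699 and 9778 in the p300-ifKO group. The 7 interneuron markers summed to between 22314 and 25564 in the controls and between 21394 and 23524 in the p300-ifKO group, with 2 above and 5 below 0. Endothelial markers summed to between 3969 and 4351 and between 3917 and 4112, also with 2 of 7 above 0. The 7 markers of excitatory neurons, in which p300 was targeted, summed to between 159191 and 184078 in the controls and between 167671 and 184764 in the p300-ifKO group, with 3 above and 4 below 0. In DESeq2, 0 markers of these types passed, against 0.0061% of all genes tested, of which 54.7% were below 0. No marker was at 0. The 6 astrocyte markers summed to between 106191 and 109752 in the controls and between 93275 and 105015 in the p300-ifKO group (2 above and 4 below 0), and the 6 oligodendrocyte markers to between 105543 and 143687 and between 114366 and 146450 (5 above and 1 below 0). The microglia sum was thus higher, and the astrocyte sum lower, in every p300-ifKO library than in any control, as *Mef2c* was lower. Single genes weigh heavily in such sums. In control replicate 1, *Slc1a2* (13133 bp of exon) had 68226 of the 106191 astrocyte counts, and *Camk2a* 99573 of the 166887 counts of excitatory neurons. Of single markers, 1 of 7 for microglia and 1 of 7 for excitatory neurons were above all controls in every p300-ifKO library. Below all controls in every p300-ifKO library were 1 of 6 for astrocytes, 1 of 7 for interneurons and 1 of 7 for endothelium. For oligodendrocytes there were 0 in either direction. Of all genes tested, 3.21% were above and 3.42% below in this way. The median log2 fold change of the astrocyte markers was −0.10, and 0.021 with length and GC offsets. For microglia markers it was 0.11 in both fits. The part of exonic length in these sums, and of cell composition in the level of *Mef2c*, was not tested.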

How the data were processed

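RNA-seq of the hippocampus covered 3 control and 3 p300-ifKO mice. The deposited table holds raw counts of single-end 50 bp reads per gene, made by the authors with Trim Galore 0.6.4, STAR 2.6.1 on GRCm38 (mm10), a mapping quality filter and Rsubread on exons of Ensembl genes, per the methods and the submitters' processing notes. Libraries held between 23151568 and 28433823 counts, and 99.57% of the genes matched GENCODE M21 by identifier, which gave symbols and coordinates.

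DESeq2 (version 1.42.0, R 4.3.3), the tool of the study, compared the groups without covariates over all genes (two-sided Wald test, median-of-ratios size factors, Benjamini-Hochberg adjusted p under 0.05). Intervals are 95% intervals. Alternatives were edgeR 4.0.16 (quasi-likelihood), limma-voom 3.58.1, TMM factors, other filters, a replicate block, 1 surrogate variable (sva 3.50.0), smooth length and GC offsets (mgcv 1.9.3) and leaving out each library. Ratios used exact permutation over mice. Only the DESeq2 and edgeR fits without covariates were tested on simulated data. The simulated counts held no trend with exonic length, and their changes were larger than those of *Mef2a*, *Mef2c*, *Mef2d* and *Srf*.

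The members and lists were chosen with earlier results of these data known. Named genes were the members, checks of the labels, the 4 genes of smallest p in each list, 8 preset targets and the 3 genes most like each member. *Elk1*, *Elk3*, *Elk4*, *Mrtfa*, *Mrtfb*, *Myocd* and the genes with motifs were named after their values were seen. 1 result on a listed gene is not reported here. Members of the lists come from general knowledge, not from binding data. Motifs (CArG box, MEF2 site) were searched on both strands in RefSeq promoter windows of GRCm38.p6.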

Additional observations from a re-analysis of the deposited data

How the results depend on the processing

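Over 15 alternatives for each of 4 members and 11 for *Mef2b*, which had no value where low counts were filtered, *Mef2d* and *Srf* were below 0 each time (from −0.40 to −0.093 and from −0.41 to −0.070) and *Mef2b* above 0. *Mef2d* passed when p300-ifKO replicate 2 was left out (−0.40, DESeq2 adjusted p 0.0387, with a range of 0.0387 to 1 over its alternatives) and no other member passed in any. Directions changed for *Mef2a* with 1 surrogate variable (0.068), with length and GC offsets (0.11) and without p300-ifKO replicate 1 (0.050), and for *Mef2c* with the offsets (0.057). The cause was not tested. Leaving out 1 library gave −0.26 to 0.050 for *Mef2a*, −0.27 to −0.13 for *Mef2c*, −0.40 to −0.14 for *Mef2d* and −0.41 to −0.13 for *Srf*. The count of genes past the threshold, 2 in DESeq2, edgeR and limma, was 3 with 1 surrogate variable, and 2 to 926 with 1 library left out, the 926 without p300-ifKO replicate 2. With the replicate block it was 4 genes, and *Mef2d* was −0.27. Replicate numbers were not treated as a pairing (correlations of deviations 0.27, −0.28 and 0.13, with 2 of 6 libraries correlating best with their own number). So few values cannot exclude one, and the block changed no call on a member. The difference in the share of *Mef2c*, 0.142 percentage points, was −0.096 without division by length and −0.322 to 0.776 with 1 library left out. With adjusted values it was 1.63 (1.8 per kb), and the *Srf* to MEF2 log2 ratio, −0.0586, was −0.408 (−0.332 per kb). The share of *Mef2d* differed by −1.79 without division by length and −5.53 with adjusted values (−5.63 per kb). The per kb versions and both alternatives for *Mef2d* were chosen after seeing the data. The median of SRF targets was −0.090 to 0.13 with 1 library left out, and that of MEF2 targets −0.29 to −0.038. With 3 mice a group, changes within the intervals given could not be told from 0.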
